A study of Oryza sativa with 18 samples.

Results

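The citrate cycle, also called the TCA cycle, was followed here through 56 of the 38993 genes in the deposited rice table. A gene was taken as a member where its KEGG annotation placed it in the citrate cycle map and in neither the carbon fixation map nor the oxidative phosphorylation map. That rule removed 12 malate dehydrogenase and phosphoenolpyruvate carboxykinase genes and 8 succinate dehydrogenase genes, out of 76 genes on the cycle map. The samples were flag leaves, the uppermost leaf of a rice shoot and a main source of sugar for the grain, taken during grain filling. Hanyou73 is a hybrid, and Hanhui3 and Huhan7B are its parental lines. The groups were droughted Hanyou73, watered Hanyou73, droughted Hanhui3, watered Hanhui3, droughted Huhan7B and watered Huhan7B, with 3 libraries in each and 18 in all. Drought meant that irrigation was stopped early in grain filling in a field that all groups shared. Each library came from leaves pooled over several plants of 1 plot, so the errors below say how pools varied and nothing about variation among plots or single plants.

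Pyruvate enters the cycle through the pyruvate dehydrogenase complex, which joins an E1 decarboxylase, an E2 acetyltransferase and an E3 dihydrolipoyl dehydrogenase to make acetyl-CoA. Plants hold a complex of this kind in mitochondria, where it feeds respiration, and a separate one in chloroplasts, where acetyl-CoA is the start of fatty acid synthesis. In the mitochondrion, citrate synthase, aconitase, NAD-dependent isocitrate dehydrogenase, the 2-oxoglutarate dehydrogenase complex, succinyl-CoA ligase, succinate dehydrogenase, fumarase and malate dehydrogenase close the cycle. In leaves, part of the citrate leaves the mitochondrion: NADP-dependent isocitrate dehydrogenase turns isocitrate into 2-oxoglutarate, the carbon skeleton for nitrogen assimilation, and ATP-citrate lyase releases acetyl-CoA in the cytosol.

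The files state no unit for the level of each gene. The levels were taken as FPKM from the values themselves, that is, fragments scaled to gene length and to the mapped fragments of the library. The step size of the low values put the depth at 13.12 to 16.48 M fragments (M for mega) per library. Of the 56 members, 41 reached 1 FPKM in at least 3 libraries and were tested, and 15 did not: 7 of those were listed at 0 in every library and none of the 15 exceeded 0.88 FPKM. A tested member was covered by a median of 744 fragments per library, with the least covered member averaging 27.1 and the best 5714. Libraries of 1 group correlated at 0.982 to 0.989 and libraries of different groups at 0.837 to 0.958. The leaf label was checked against marker genes. Rubisco small subunits summed to 3157 to 28828 FPKM over the libraries, whereas pollen exopolygalacturonase stayed at or under 0.07 and prolamin at or under 3.42. Glutelin genes, which mark grain, summed to 81.5 to 130 FPKM, and 5 of 15 were at 0 in every library. Cyclin B and PCNA genes, which mark dividing cells, summed to 219 to 374 FPKM. The hybrid libraries stood apart in some leaf markers, not all in the same direction. PSBS summed to 1470 to 1536 FPKM in droughted Hanyou73 and 1252 to 1293 in watered Hanyou73, against 427 to 1210 in the parents. GDCH, at 778 to 807 and 184 to 200 FPKM in the same groups, lay within the parental range of 136 to 833. Rubisco small subunits were at 15332 to 15363 FPKM in droughted Hanyou73 and 3157 to 3319 in watered Hanyou73, against 7475 to 28828 in the parents. Rubisco activase genes summed to 266 to 291 FPKM in droughted Hanyou73 and 232 to 242 in watered Hanyou73, against 3248 to 11072 in the 12 parental libraries, and chlorophyll a-b binding proteins summed to 9489 to 15272 in Hanyou73 against 49255 to 80198 in the parents. Secondary-wall cellulose synthases, markers of stem and vascular tissue, summed to 39.2 to 39.9 FPKM in droughted Hanyou73 against at most 1.36 elsewhere. Pollen allergen genes summed to 393 to 411 FPKM in droughted Hanyou73 against 99.7 to 106 in watered Hanyou73, to 56.8 to 62.8 in droughted Hanhui3 against 35.3 to 40.8 in watered Hanhui3, and to 68.6 to 81.2 in droughted Huhan7B against 848 to 909 in watered Huhan7B. What part these differences have in the values below was not tested, and in pooled leaf RNA fewer cells of a type cannot be told apart from less RNA per cell.

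Under drought the members moved in different directions in the 3 genotypes. In Hanyou73, 15 of the 41 tested members rose (45.0% of all 22590 genes tested did) and 16 fell (25.7%), with a median log2 change of -0.02 over the members against 0.18 over all genes. In Hanhui3, 22 rose (35.1% of all genes) and 5 fell (18.4%), with a median of 0.14 against 0.10. In Huhan7B, 3 rose (21.2% of all genes) and 26 fell (32.1%), with a median of -0.41 against -0.07. A member was called where limma on log2(FPKM + 1) gave an adjusted p under 0.05 over all genes tested. Centring the libraries on the median gene changed the splits to 11 higher and 20 lower in Hanyou73, 14 and 9 in Hanhui3, and 8 and 23 in Huhan7B. That centring moved the median of all genes to 0.02 in Hanyou73, 0.01 in Hanhui3 and 0.01 in Huhan7B. The pollen allergen and cellulose synthase sums given above were also higher in droughted than in watered Hanyou73, and their part in these changes was not tested. Across all 3 genotypes, 3 members rose in each of them and 2 fell in each of them. The share of all genes that did so was not computed, so these counts have no background beside them. The 3 that rose were Os06g0246500 and Os04g0119400, which encode E1 alpha subunits, and Os01g0337900, a chloroplast E3. The 2 that fell were Os01g0654500, the cytosolic NADP-dependent isocitrate dehydrogenase, and Os06g0499900, a mitochondrial E2.

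**Figure D1:**
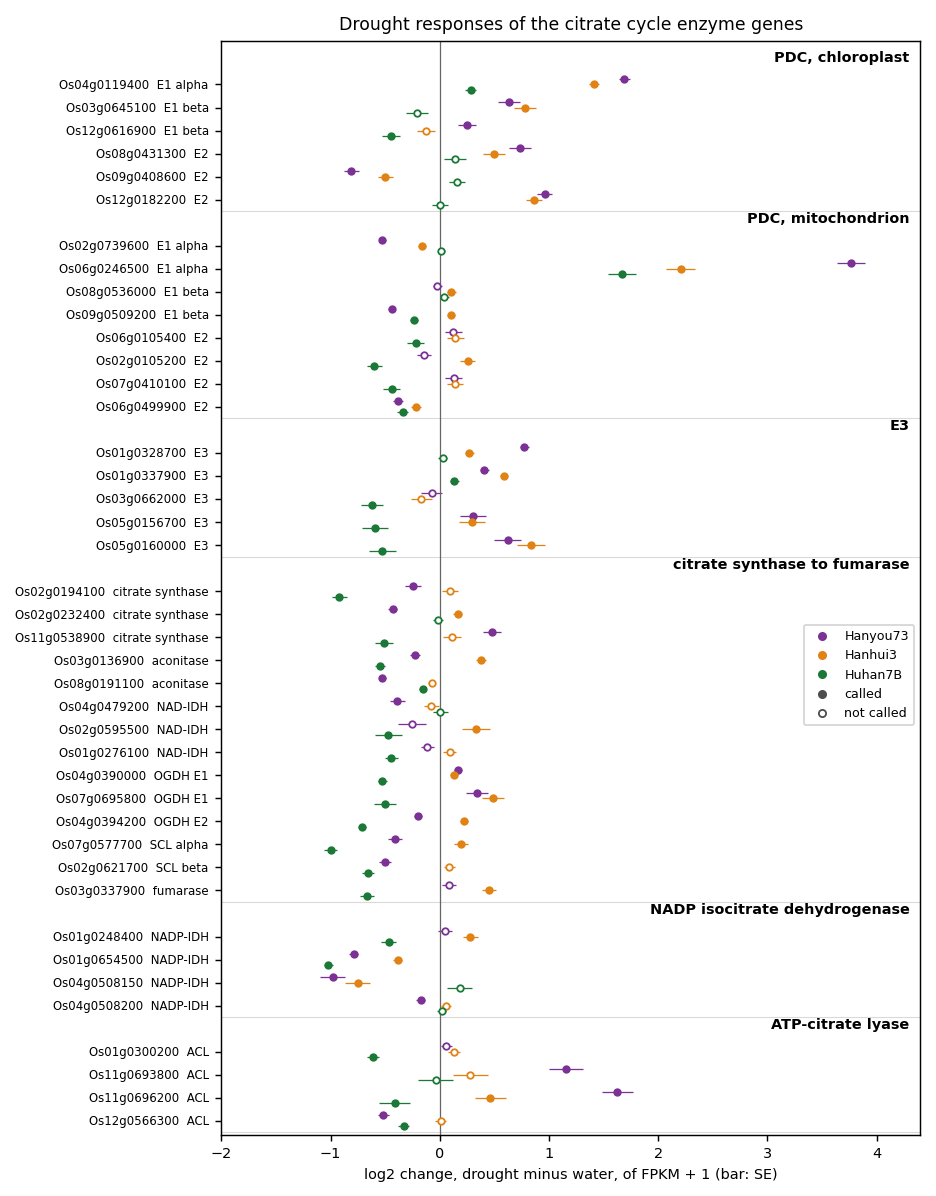
The log2 change of FPKM + 1 under drought, drought minus water, is plotted for each of the 41 tested members, with a bar of 1 SE, filled points for called changes and 1 colour per genotype (PDC, pyruvate dehydrogenase complex; IDH, isocitrate dehydrogenase; OGDH, 2-oxoglutarate dehydrogenase; SCL, succinyl-CoA ligase; ACL, ATP-citrate lyase). Chloroplast pyruvate dehydrogenase genes lie mostly right of 0 in Hanyou73 and Hanhui3, and 12 of the 14 genes from citrate synthase to fumarase are called left of 0 in Huhan7B.

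Most chloroplast pyruvate dehydrogenase genes rose under drought in the hybrid and in Hanhui3, and most did not pass the test in Huhan7B. Of the 6 genes annotated to the chloroplast, 5 rose (45.0% of all genes did) and 1 fell (25.7%) in Hanyou73. In Hanhui3, 4 rose (35.1%) and 1 fell (18.4%), and in Huhan7B 1 rose (21.2%) and 1 fell (32.1%). After centring on the median gene the splits were 4 and 1, 4 and 2, and 2 and 1. The 6 genes had median log2 changes of 0.69, 0.64 and 0.07 in that order of genotypes, against 0.18, 0.10 and -0.07 over all genes. Os04g0119400, annotated as the E1 alpha-3 subunit, had 71.9, 69.4 and 68.9 FPKM in droughted Hanyou73, against 20.5, 21.3 and 21.3 FPKM in watered Hanyou73. In Hanhui3 it had 37.6, 37.1 and 39.3 FPKM under drought, against 13.8, 13.4 and 13.7 FPKM with water. The groups did not overlap in either genotype, and the means differed 3.33-fold in Hanyou73 and 2.79-fold in Hanhui3. On the log2(FPKM + 1) scale the changes were 1.69 ± 0.05 (SE, limma adjusted p = 6.7e-14) and 1.41 ± 0.05 (adjusted p = 4.5e-12). In Huhan7B the same gene had 21.2, 21.1 and 19.4 FPKM under drought, against 17.7, 16.9 and 15.6 FPKM with water, a smaller change of 0.28 ± 0.05 (limma adjusted p = 0.00015). The responses of Hanhui3 and Huhan7B differed by 1.13 ± 0.07 for this subunit (limma adjusted p = 3.2e-09).

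The E2 subunits of the chloroplast complex split. Os12g0182200, annotated by likeness to the Arabidopsis component 5, had 44.5, 47.2 and 45.1 FPKM in droughted Hanyou73, against 20.4, 23.8 and 24.9 FPKM in watered Hanyou73. In Hanhui3 its levels were 36.9, 38.6 and 35.8 FPKM under drought, against 19.2, 21.2 and 19.5 FPKM with water. Huhan7B showed no such gap: 24.2, 23.0 and 21.0 FPKM under drought stood beside 23.8, 22.8 and 21.5 FPKM with water, and the log2 change was 0.00 ± 0.07. Os09g0408600, annotated by likeness to component 4, went the other way. It had 44.8, 43.8 and 41.5 FPKM in droughted Hanyou73, against 77.8, 72.3 and 80.2 FPKM in watered Hanyou73, a log2 change of -0.81 ± 0.07 (limma adjusted p = 3.8e-08). Its levels were 32.1, 33.9 and 34.9 FPKM in droughted Hanhui3, against 52.8, 49.3 and 42.2 FPKM in watered Hanhui3 (-0.50 ± 0.07, limma adjusted p = 2.1e-05). In Huhan7B it had 77.2, 82.0 and 86.2 FPKM under drought, against 73.8, 70.2 and 75.5 FPKM with water (0.16 ± 0.07, limma adjusted p = 0.068). Os08g0431300, which carries the same component 4 annotation, rose with Os12g0182200 and not with Os09g0408600: it had 7.28, 9.00 and 8.27 FPKM in droughted Hanyou73, against 4.15, 4.39 and 5.02 FPKM in watered Hanyou73, a change of 0.73 ± 0.10 (limma adjusted p = 9.5e-06). Within the E2 transcripts of the chloroplast, Os09g0408600 therefore made up 43.8% to 46.3% of the summed FPKM in droughted Hanyou73, against 71.9% to 76.1% in watered Hanyou73. In Hanhui3 that share was 40.9% to 43.7% under drought, against 62.5% to 67.6% with water. In Huhan7B the ranges lay at 73.2% to 77.4% under drought and 72.5% to 75.1% with water and overlapped.

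E1 beta subunits of the chloroplast complex were measured from Os03g0645100 and Os12g0616900. Os03g0645100, annotated as beta-4, averaged 116 ± 5.60 FPKM in droughted Hanyou73 and 74.0 ± 3.06 FPKM in watered Hanyou73 (SD, n = 3 each), a log2 change of 0.64 ± 0.10 (SE, limma adjusted p = 3.7e-05). In Hanhui3 it averaged 113 ± 12.6 FPKM under drought and 65.6 ± 11.4 FPKM with water (SD, n = 3 each), a change of 0.78 ± 0.10 (limma adjusted p = 9.7e-06). Os12g0616900, annotated as beta-3, was lower and ranged from 10.6 to 18.7 FPKM over all libraries. Its change in Hanyou73 was 0.25 ± 0.08, a call that was lost under at least 1 alternative setting, and in Huhan7B it fell by 0.45 (limma adjusted p = 0.00025).

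**Figure D2:**
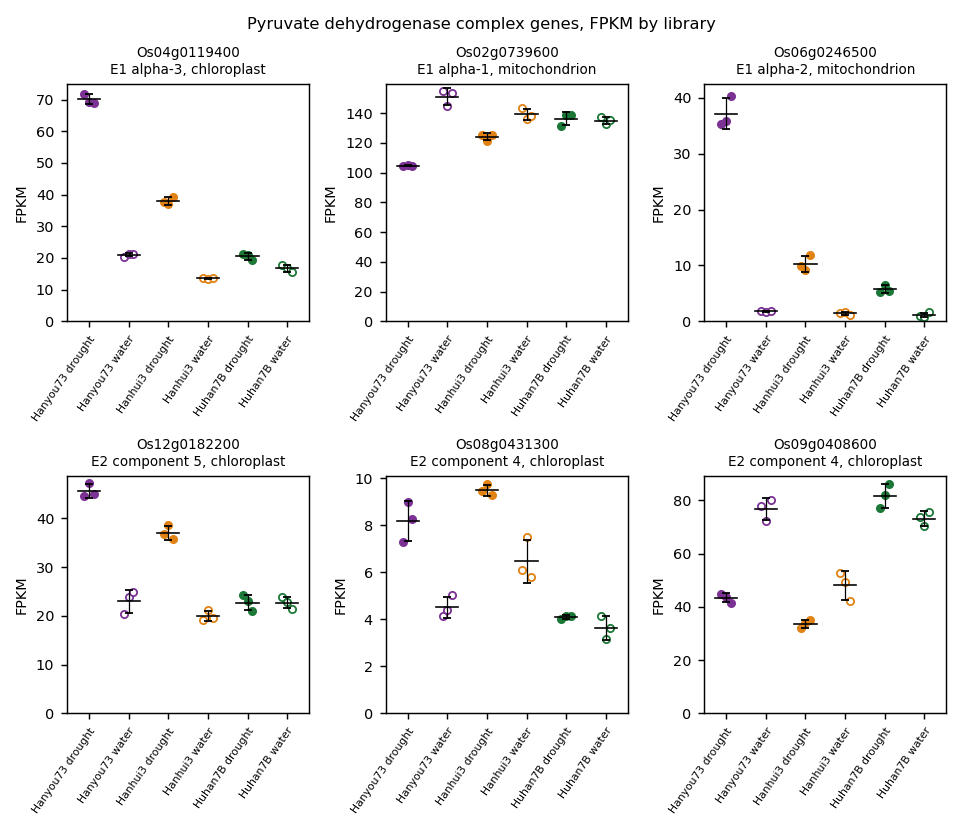
Levels in FPKM of 3 E1 alpha genes (top) and 3 chloroplast E2 genes (bottom) are plotted per library, drought left of water in each genotype, with a line at the mean and bars of 1 SD (n = 3). Os06g0246500 lies at 35.3 to 40.4 FPKM in droughted Hanyou73, against 1.76 to 1.85 FPKM in watered Hanyou73, and Os09g0408600 is lower under drought in Hanyou73 and Hanhui3.

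The mitochondrial pyruvate dehydrogenase genes showed no common direction, and 1 of them had the largest drought change of any member. Of 8 such genes, 1 rose (45.0% of all genes did) and 3 fell (25.7%) in Hanyou73. In Hanhui3, 4 rose (35.1%) and 2 fell (18.4%), and in Huhan7B 1 rose (21.2%) and 5 fell (32.1%). After centring on the median gene the splits were 1 and 5, 1 and 2, and 3 and 4 in that order. The gene that rose in all 3 genotypes was Os06g0246500, annotated as the E1 alpha-2 subunit. It had 35.3, 35.8 and 40.4 FPKM in droughted Hanyou73, against 1.80, 1.76 and 1.85 FPKM in watered Hanyou73. In Hanhui3 it had 9.88, 9.21 and 11.9 FPKM under drought, against 1.44, 1.72 and 1.21 FPKM with water. In Huhan7B it had 5.20, 6.56 and 5.44 FPKM under drought, against 0.98, 0.82 and 1.60 FPKM with water. Drought and water did not overlap in any genotype, and the 3 watered groups all lay under 2 FPKM, where adding 1 to each value makes the log2 change understate the ratio. The ratio of mean FPKM was 20.6 in Hanyou73, 7.10 in Hanhui3 and 5.06 in Huhan7B. On the log2(FPKM + 1) scale the changes were 3.77 ± 0.13 (SE, limma adjusted p = 6.5e-13), 2.21 ± 0.13 (adjusted p = 1.7e-09) and 1.67 ± 0.13 (adjusted p = 2.9e-08) in the same order. The hybrid's change exceeded the mean of the parental changes by 1.83 ± 0.16 (limma adjusted p = 1.2e-07).

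Os02g0739600, OsPDHE1-A in the file and the alpha-1 subunit of the same mitochondrial E1, was the most abundant E1 alpha gene in every library. It had 104, 105 and 104 FPKM in droughted Hanyou73, against 155, 145 and 154 FPKM in watered Hanyou73, a log2 change of -0.53 ± 0.03 (limma adjusted p = 8.1e-10). In Hanhui3 it had 126, 121 and 126 FPKM under drought, against 143, 136 and 138 FPKM with water (-0.16 ± 0.03, limma adjusted p = 0.00063). In Huhan7B its levels overlapped, with 131, 139 and 139 FPKM under drought and 137, 133 and 135 FPKM with water. The make-up of the E1 alpha transcripts therefore differed between drought and water. Os06g0246500 made up 16.7%, 17.0% and 18.9% of the summed E1 alpha FPKM in droughted Hanyou73, against 1.02%, 1.05% and 1.05% in watered Hanyou73. In Hanhui3 its share was 5.49% to 6.76% under drought, against 0.79% to 1.14% with water, and in Huhan7B it was 3.30% to 3.94% under drought, against 0.54% to 1.05% with water. Os02g0739600 held 48.9% to 50.0% in droughted Hanyou73, against 86.3% to 87.4% in watered Hanyou73, and kept at least 71.0% in every parental library. The chloroplast gene Os04g0119400 held 32.2% to 34.0% in droughted Hanyou73, against 11.55% to 12.7% in watered Hanyou73. These are therefore not shares of the mitochondrial E1 alone. The sum of the 3 E1 alpha genes was 210.2 to 214 FPKM in droughted Hanyou73, against 168 to 177 FPKM in watered Hanyou73.

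Genes of the other subunits of the mitochondrial complex had smaller changes than Os06g0246500. Os09g0509200, the more abundant E1 beta gene, averaged 120.4 ± 2.73 FPKM in droughted Hanyou73 and 164 ± 4.55 FPKM in watered Hanyou73 (SD, n = 3 each), and fell by 0.44 on the log2 scale (limma adjusted p = 1.3e-08). It had 136, 127 and 134 FPKM in droughted Huhan7B, against 156, 159 and 154 FPKM in watered Huhan7B, a change of -0.24 ± 0.03 (limma adjusted p = 2.8e-05). In Hanhui3 it was called at 0.10 ± 0.03, and under at least 1 alternative that call was lost and its sign turned. Os08g0536000, the other mitochondrial E1 beta gene, passed the test only in Hanhui3, by 0.11 ± 0.04, which was lost and turned its sign in the same way. Among the 4 mitochondrial E2 genes, Os06g0499900 fell in each genotype, by 0.38 in Hanyou73, 0.22 in Hanhui3 and 0.34 in Huhan7B. Os02g0105200 fell in Huhan7B, where it averaged 7.84 ± 0.317 FPKM under drought and 12.4 ± 0.448 FPKM with water (SD, n = 3 each), a change of -0.60 ± 0.07 (SE, limma adjusted p = 1.6e-06). In Hanhui3 this gene rose by 0.25 ± 0.07 (limma adjusted p = 0.0044), a call that was lost under at least 1 alternative. Os07g0410100 and Os06g0105400 changed within 0.14 on the log2 scale in Hanyou73 and Hanhui3, without passing the test, and fell by 0.44 and by 0.22 in Huhan7B, where the call of Os06g0105400 was lost under at least 1 alternative.

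Summed within each library, chloroplast E1 and E2 transcripts stood at 0.682 to 0.735 times the mitochondrial ones in droughted Hanyou73, against 0.434 to 0.450 in watered Hanyou73. The ratio was 0.647 to 0.693 in droughted Hanhui3, against 0.446 to 0.479 in watered Hanhui3, and 0.485 to 0.504 in droughted Huhan7B, against 0.441 to 0.451 in watered Huhan7B. Drought libraries lay above watered libraries in each genotype, and all 9 watered libraries lay between 0.434 and 0.479. Because both sums come from the same library, the ratio does not depend on how libraries are scaled to each other. Its parts moved unequally: the chloroplast sum was 292 to 304 FPKM in droughted Hanyou73, against 207 to 222 FPKM in watered Hanyou73, and the mitochondrial sum was 414 to 428 FPKM under drought, against 477 to 493 FPKM with water.

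**Figure D3:**
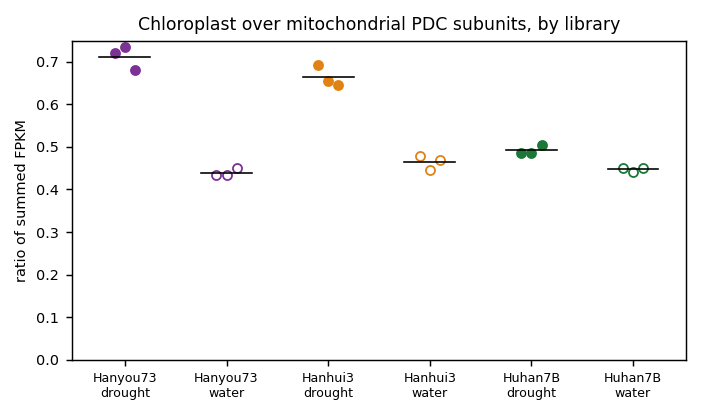
The summed FPKM of 6 chloroplast E1 and E2 genes divided by that of 8 mitochondrial ones is plotted for each library, drought left of water in each genotype, with a line at the mean. Droughted Hanyou73 lies at 0.682 to 0.735 and droughted Hanhui3 at 0.647 to 0.693, above the watered libraries at 0.434 to 0.479, with droughted Huhan7B between them.

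E3, dihydrolipoyl dehydrogenase, is shared by the pyruvate and 2-oxoglutarate dehydrogenase complexes and, in leaf mitochondria, by the glycine decarboxylase of photorespiration. Of 5 tested E3 genes, 4 rose and none fell in Hanyou73 and in Hanhui3 (3 rose in each after centring on the median gene). Over all genes, 45.0% rose and 25.7% fell in Hanyou73, and 35.1% and 18.4% in Hanhui3. In Huhan7B 1 rose (21.2% of all genes) and 3 fell (32.1%), with 2 and 3 after centring. Os01g0328700, the most abundant E3 gene and annotated to the mitochondrion, had 113, 114 and 109.5 FPKM in droughted Hanyou73, against 64.4, 64.8 and 66.0 FPKM in watered Hanyou73. Its levels were 105, 100.2 and 103 FPKM in droughted Hanhui3, against 78.5, 87.1 and 88.9 FPKM in watered Hanhui3, and they overlapped in Huhan7B at 65.2 to 66.7 FPKM under drought and 64.2 to 66.0 FPKM with water. The change was 0.78 ± 0.04 in Hanyou73 (SE, limma adjusted p = 6.0e-11) and 0.27 ± 0.04 in Hanhui3 (limma adjusted p = 3.0e-05). Os01g0337900, an E3 annotated to the chloroplast, rose in all 3 genotypes, by 0.41 in Hanyou73, 0.59 in Hanhui3 and 0.13 in Huhan7B. The other chloroplast E3, Os05g0156700, averaged 20.3 FPKM under drought against 16.3 with water in Hanyou73, and 14.2 against 11.6 in Hanhui3. Both rises lost their call under at least 1 alternative, and in Huhan7B this gene fell, to 10.7 FPKM against 16.6 with water. Os05g0160000 had 29.9, 31.6 and 29.1 FPKM in droughted Hanyou73, against 19.8, 19.9 and 18.2 FPKM in watered Hanyou73. It had 25.3, 31.3 and 29.2 FPKM in droughted Hanhui3, against 13.6, 16.3 and 17.1 FPKM in watered Hanhui3. In Huhan7B the direction turned, with 20.8, 17.1 and 26.5 FPKM under drought, against 28.8, 34.5 and 29.6 FPKM with water. The gene model of Os05g0160000 is 492 bases long, which is shorter than a full E3 gene, so its values rest on 38.1 to 104 fragments per library. Os03g0662000, at 0.09 to 2.50 FPKM, fell by 0.62 in Huhan7B (limma adjusted p = 6.3e-05) and did not pass the test in Hanyou73 or Hanhui3.

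From citrate synthase to fumarase, most genes fell in Huhan7B, and none was called lower in Hanhui3 before centring on the median gene. The 14 tested genes of these steps, called cycle genes below, include 2 aconitase genes annotated as cytosolic. They also include 1 citrate synthase gene annotated as peroxisomal. Of the 14, none rose (21.2% of all genes did) and 12 fell (32.1%) in Huhan7B, with a median log2 change of -0.52. After centring on the median gene that split was 0 and 11. In Hanhui3, 8 rose (35.1%) and none fell (18.4%), with a median of 0.15, but the split was 4 higher and 2 lower after centring. In Hanyou73, 3 rose (45.0%) and 8 fell (25.7%), with a median of -0.24, and the split was 1 and 10 after centring. Of the 11 cycle genes annotated to the mitochondrion, none rose and 10 fell in Huhan7B (0 and 10 after centring). In Hanhui3, 6 of the 11 rose and none fell (3 and 1). In Hanyou73, 3 of the 11 rose and 5 fell (1 and 7). Summed over the mitochondrial genes of these steps, the level was 479 to 489 FPKM in droughted Hanyou73, against 523 to 530 FPKM in watered Hanyou73. The same sum was 335 to 351 FPKM in droughted Hanhui3, against 298 to 315 FPKM in watered Hanhui3, and 303 to 314 FPKM in droughted Huhan7B, against 468 to 486 FPKM in watered Huhan7B. Droughted Huhan7B thus lay in the range of watered Hanhui3, and watered Huhan7B near the hybrid. Pollen allergen transcripts were also lower, at 68.6 to 81.2 FPKM in droughted Huhan7B against 848 to 909 FPKM in watered Huhan7B. The other pollen marker, exopolygalacturonase, stayed at or under 0.07 FPKM in both groups. The part of these markers in the fall of the cycle genes was not tested.

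Citrate synthase, which joins acetyl-CoA to oxaloacetate, was represented by 3 tested genes. Os02g0194100, annotated to the mitochondrion, had 16.5, 13.9 and 14.0 FPKM in droughted Huhan7B, against 29.6, 28.4 and 28.3 FPKM in watered Huhan7B, a log2 change of -0.92 ± 0.07 (SE, limma adjusted p = 2.7e-08). It had 26.9, 25.6 and 26.1 FPKM in droughted Hanyou73, against 31.9, 31.0 and 31.1 FPKM in watered Hanyou73 (-0.25 ± 0.07, limma adjusted p = 0.0059). In Hanhui3 its levels overlapped, with 17.7, 20.7 and 20.6 FPKM under drought and 17.2, 17.8 and 20.1 FPKM with water. The other mitochondrial gene, Os11g0538900, rose by 0.48 ± 0.08 in Hanyou73 (limma adjusted p = 8.7e-05) and fell by 0.51 in Huhan7B (limma adjusted p = 7.5e-05). Os02g0232400, whose closest annotated protein is the peroxisomal citrate synthase of Arabidopsis, was the most abundant of the class. It had 77.0, 72.9 and 67.9 FPKM in droughted Hanyou73, against 98.5, 99.0 and 96.8 FPKM in watered Hanyou73 (-0.43 ± 0.04, limma adjusted p = 3.0e-07). Its levels were 51.3, 49.1 and 51.9 FPKM in droughted Hanhui3, against 43.1, 46.6 and 46.0 FPKM in watered Hanhui3, a call of 0.16 ± 0.04 that was lost under at least 1 alternative. In Huhan7B the groups overlapped, with 75.4, 76.5 and 75.0 FPKM under drought and 79.0, 76.4 and 74.0 FPKM with water.

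Aconitase converts citrate to isocitrate, and both tested genes are annotated as cytosolic although plant aconitases also work in mitochondria. OsACO1, Os08g0191100, had 131, 129.8 and 129.8 FPKM in droughted Hanyou73, against 185, 195 and 183 FPKM in watered Hanyou73 (-0.52 ± 0.03, limma adjusted p = 1.3e-09). Hanhui3 had 46.0, 47.4 and 47.8 FPKM under drought, against 50.0, 48.2 and 50.6 FPKM with water (-0.07 ± 0.03, limma adjusted p = 0.081). Huhan7B had 90.5, 91.2 and 91.1 FPKM under drought, against 104, 104 and 96.8 FPKM with water, a call of -0.16 ± 0.03 that was lost under at least 1 alternative. The hybrid's fall exceeded the mean parental change by 0.41 (limma adjusted p = 6.5e-07). Os03g0136900 fell in Hanyou73 and Huhan7B, by 0.23 and 0.55, and rose by 0.38 in Hanhui3.

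NAD-dependent isocitrate dehydrogenase, a regulated step of the cycle, had 3 tested genes with modest changes. OsIDHa, Os01g0276100, was the most abundant: it had 46.0, 50.4 and 49.8 FPKM in droughted Hanyou73 and 54.9, 50.0 and 53.6 FPKM in watered Hanyou73, which overlapped. Its levels were 35.7, 33.4 and 32.2 FPKM in droughted Hanhui3 and 29.6, 30.2 and 35.2 FPKM in watered Hanhui3, which overlapped as well. Huhan7B had 34.1, 32.6 and 34.1 FPKM under drought, against 46.2, 46.3 and 45.8 FPKM with water, and fell by 0.44 (limma adjusted p = 1.5e-05). OsIDHc-1, Os04g0479200, was called in Hanyou73 alone of the 3 responses, at -0.39 ± 0.07. The least abundant, OsIDHc or Os02g0595500, ranged from 5.86 to 14.7 FPKM and fell by 0.47 in Huhan7B. Its rise of 0.33 ± 0.13 in Hanhui3 (limma adjusted p = 0.037) lost its call under at least 1 alternative.

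The 2-oxoglutarate dehydrogenase complex turns 2-oxoglutarate into succinyl-CoA. Its main E1 gene, Os04g0390000, had 144, 141 and 138 FPKM in droughted Hanyou73, against 122, 127 and 127 FPKM in watered Hanyou73, and 110.4, 106 and 115 FPKM in droughted Hanhui3, against 97.2, 104 and 101 FPKM in watered Hanhui3. Both rises were small, 0.17 ± 0.04 and 0.13 ± 0.04, and lost their call under at least 1 alternative, where the sign in Hanyou73 also turned. Huhan7B had 95.3, 93.2 and 89.8 FPKM under drought, against 139, 129.9 and 133 FPKM with water, and fell by 0.53 (limma adjusted p = 1.9e-08). The second E1 gene, Os07g0695800, averaged 27.3 ± 1.19 FPKM in droughted Hanyou73 and 21.4 ± 1.49 FPKM in watered Hanyou73 (SD, n = 3 each). Its rise in Hanyou73 of 0.34 ± 0.10 (limma adjusted p = 0.0067) lost its call under at least 1 alternative. In the parents it averaged at most 13.9 FPKM, and it rose by 0.49 in Hanhui3 (limma adjusted p = 0.00068) and fell by 0.50 in Huhan7B (limma adjusted p = 0.00052). The E2 succinyltransferase gene, Os04g0394200, had 52.8, 51.3 and 53.2 FPKM in droughted Hanyou73, against 61.1, 58.4 and 61.5 FPKM in watered Hanyou73. It had 37.3, 37.3 and 39.5 FPKM in droughted Hanhui3, against 32.7, 32.0 and 32.6 FPKM in watered Hanhui3. Its levels were lower in droughted Huhan7B: 35.9, 34.7 and 33.9 FPKM, against 56.0, 58.5 and 58.5 FPKM with water, a log2 change of -0.71 ± 0.04 (limma adjusted p = 1.8e-10). Drought and water did not overlap in any genotype, and the direction in Hanhui3 was opposite to that in the other 2 genotypes.

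Succinyl-CoA ligase makes succinate with the release of ATP. The alpha subunit, Os07g0577700, had 62.4, 61.2 and 70.7 FPKM in droughted Hanyou73, against 88.4, 81.0 and 89.8 FPKM in watered Hanyou73 (-0.41 ± 0.06, limma adjusted p = 2.3e-05). Hanhui3 had 40.4, 36.9 and 42.3 FPKM under drought, against 33.1, 34.4 and 36.4 FPKM with water, a call of 0.20 ± 0.06 that was lost under at least 1 alternative. In Huhan7B it had 33.6, 33.5 and 34.7 FPKM under drought, against 71.9, 68.1 and 66.6 FPKM with water (-0.9995 ± 0.06, limma adjusted p = 1.9e-09). The beta subunit, Os02g0621700, had 51.7, 53.9 and 56.6 FPKM in droughted Hanyou73, against 73.9, 79.4 and 78.0 FPKM in watered Hanyou73 (-0.50 ± 0.05, limma adjusted p = 4.6e-07). It had 38.7, 38.4 and 39.0 FPKM in droughted Hanhui3, beside 33.0, 38.4 and 37.9 FPKM in watered Hanhui3, and 39.1, 37.2 and 38.6 FPKM in droughted Huhan7B, against 58.8, 63.3 and 60.9 FPKM in watered Huhan7B (-0.66 ± 0.05, limma adjusted p = 4.4e-08). Both subunits were lower under drought in the hybrid and in Huhan7B.

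Fumarase, which hydrates fumarate to malate, was measured from Os03g0337900 alone. It had 21.7, 20.8 and 19.1 FPKM in droughted Hanyou73, beside 19.9, 18.5 and 19.4 FPKM in watered Hanyou73, which overlapped. Hanhui3 had 14.9, 15.1 and 14.2 FPKM under drought, against 11.9, 9.91 and 9.88 FPKM with water (0.45 ± 0.06, limma adjusted p = 3.1e-05). Huhan7B had 14.1, 14.4 and 15.0 FPKM under drought, against 23.1, 24.0 and 23.8 FPKM with water (-0.67 ± 0.06, limma adjusted p = 3.4e-07). The droughted parents lay side by side, and the watered parents lay far apart.

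**Figure D4:**
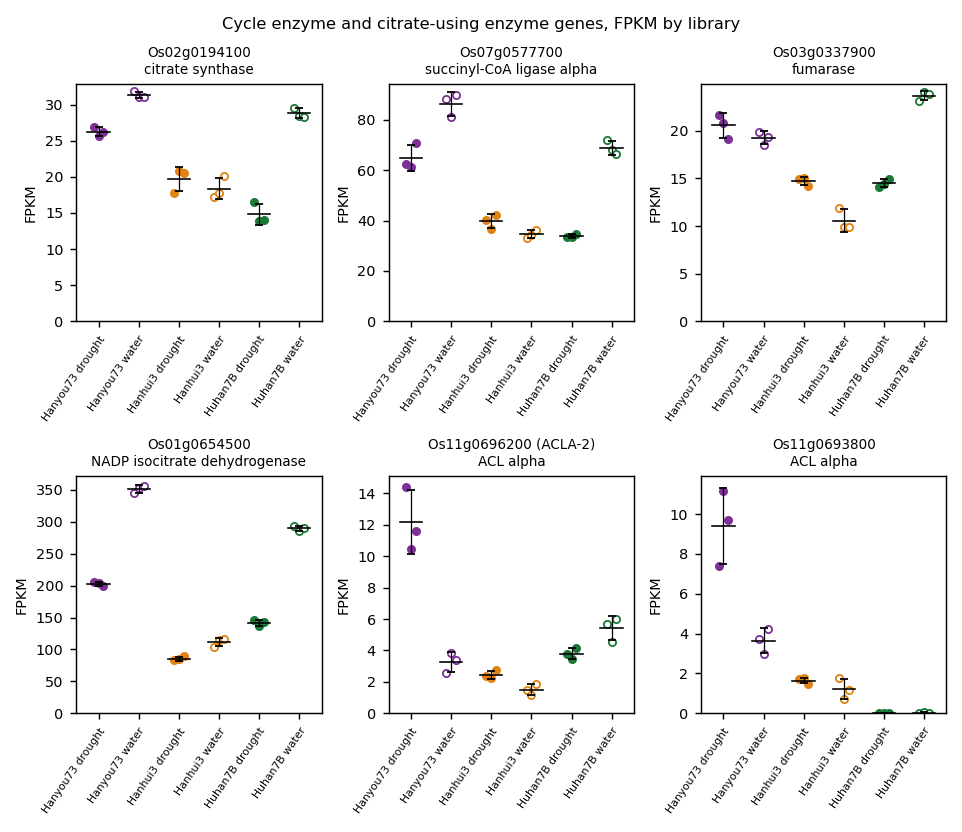
Levels in FPKM of 3 cycle genes (top) and 3 genes of citrate use (bottom) are plotted per library, drought left of water in each genotype, with a line at the mean and bars of 1 SD (n = 3). The cycle genes of droughted Huhan7B lie near or under those of droughted Hanhui3, and both ATP-citrate lyase genes reach their highest levels in droughted Hanyou73.

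NADP-dependent isocitrate dehydrogenase genes fell or did not pass the test, except Os01g0248400, which rose by 0.28 in Hanhui3. Of 4 tested genes, none rose (45.0% of all genes did) and 3 fell (25.7%) in Hanyou73. In Hanhui3, 1 rose (35.1%) and 2 fell (18.4%). In Huhan7B none rose (21.2%) and 2 fell (32.1%), with 1 and 2 after centring on the median gene. Os01g0654500, annotated as cytosolic, had the highest mean level of all members. It had 205, 205 and 199 FPKM in droughted Hanyou73, against 344, 353 and 356 FPKM in watered Hanyou73 (-0.79 ± 0.04, limma adjusted p = 6.7e-11). In Hanhui3 it had 82.8, 84.3 and 89.1 FPKM under drought, against 104, 116 and 116 FPKM with water (-0.39 ± 0.04, limma adjusted p = 1.0e-06). In Huhan7B it had 147, 137 and 143 FPKM under drought, against 293, 285 and 291 FPKM with water (-1.02 ± 0.04, limma adjusted p = 9.7e-12). No drought library reached the lowest watered library of its genotype. Os04g0508200, OsICDH in the file and annotated to the chloroplast or mitochondrion, averaged 60.3 ± 0.426 FPKM in droughted Hanyou73 and 68.3 ± 1.41 FPKM in watered Hanyou73 (SD, n = 3 each), and was not called in the parents. The fourth gene, Os04g0508150, is a model of 644 bases whose locus number is next to that of OsICDH. It had 5.83, 5.85 and 7.55 FPKM in droughted Hanyou73, against 13.2, 13.8 and 13.7 FPKM in watered Hanyou73, and 2.03 to 4.88 FPKM in the parents. Its values rest on 9.9 to 70.5 fragments per library and are uncertain, since whether its reads can be told apart from those of OsICDH was not tested.

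ATP-citrate lyase, the cytosolic enzyme that cleaves citrate, is built from alpha and beta subunits in plants. Its 4 genes split by abundance in the hybrid: both low genes rose, while of the abundant ones 1 fell and 1 was not called. Os11g0696200, ACLA-2, had 14.4, 10.5 and 11.6 FPKM in droughted Hanyou73, against 2.55, 3.84 and 3.41 FPKM in watered Hanyou73, a 3.73-fold difference of means and a log2 change of 1.63 ± 0.14 (limma adjusted p = 5.0e-08). In Hanhui3 it had 2.36, 2.22 and 2.75 FPKM under drought, against 1.47, 1.19 and 1.87 FPKM with water. In Huhan7B it had 3.76, 3.48 and 4.18 FPKM under drought, against 5.68, 4.56 and 6.00 FPKM with water. Changes of 0.46 ± 0.14 in Hanhui3 and -0.41 ± 0.14 in Huhan7B lost their call under at least 1 alternative. Os11g0693800, annotated as an alpha chain protein 1, had 7.39, 11.2 and 9.68 FPKM in droughted Hanyou73, against 3.73, 2.97 and 4.24 FPKM in watered Hanyou73 (1.16 ± 0.16, limma adjusted p = 8.5e-06). It had 1.70, 1.75 and 1.49 FPKM in droughted Hanhui3, beside 1.76, 0.74 and 1.15 FPKM in watered Hanhui3, and was listed at 0 in 5 of 6 Huhan7B libraries and at 0.08 FPKM in the other. Both genes were higher in droughted Hanyou73 than in any other group. Os12g0566300, ACLA-3 and the most abundant of the 4, had 66.8, 71.4 and 70.9 FPKM in droughted Hanyou73, against 99.96, 96.2 and 104 FPKM in watered Hanyou73 (-0.52 ± 0.05, limma adjusted p = 9.4e-08). Its levels were 63.9, 59.9 and 58.0 FPKM in droughted Hanhui3, beside 56.0, 61.7 and 63.2 FPKM in watered Hanhui3, and 79.2, 78.6 and 77.2 FPKM in droughted Huhan7B, against 97.0, 100.4 and 99.0 FPKM in watered Huhan7B. ACLB-1, Os01g0300200, the beta subunit, fell in Huhan7B to 34.1, 36.0 and 35.5 FPKM, against 55.3, 55.3 and 52.4 FPKM in watered Huhan7B. Because the abundant genes dominate, the sum of the 4 genes was 138 to 146 FPKM in droughted Hanyou73, against 153 to 157 FPKM in watered Hanyou73.

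The parents' drought responses differed for most members. The change in Hanhui3 was higher than that in Huhan7B for 32 of the 41 (36.2% of all genes tested were) and lower for 3 (17.1%), with a median difference of 0.58 on the log2 scale against 0.18 over all genes. After centring on the median gene the split was 24 higher and 7 lower. In each parent's own test, 13 members rose in Hanhui3 and fell in Huhan7B, and none did the reverse. The share of all genes with either joint pattern was not computed. Taken singly, 35.1% of all genes rose and 18.4% fell in Hanhui3, and 21.2% rose and 32.1% fell in Huhan7B, so all genes lean the same way. All 5 E3 genes (4 higher and none lower after centring), 12 of the 14 cycle genes (11 and 2) and 5 of the 6 chloroplast pyruvate dehydrogenase genes (3 and 1) were among the 32. The largest differences were 1.36 ± 0.18 for Os05g0160000 (limma adjusted p = 1.2e-05) and 1.20 ± 0.09 for the succinyl-CoA ligase alpha gene Os07g0577700 (limma adjusted p = 2.6e-08), followed by the E1 alpha-3 subunit given above. Among the 3 lower ones, Os04g0508150 differed by -0.94 and Os09g0408600 by -0.66.

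With water, the parents differed in level. Hanhui3 was lower than Huhan7B in 31 members (41.2% of all genes) and higher in 5 (25.3%), with a median log2 difference of -0.54 against -0.12 over all genes, and in 25 and 7 after centring. Under drought, Hanhui3 was higher in 18 (32.0% of all genes) and lower in 14 (26.9%), with a median of 0.04 for both the members and all genes. That split was 15 higher and 14 lower after centring. Of the 14 cycle genes, 13 were lower in watered Hanhui3 than in watered Huhan7B (12 after centring). Under drought 6 were higher and 3 lower (5 and 3 after centring). Os01g0654500 was lower in Hanhui3 in both conditions, by 1.36 with water (limma adjusted p = 7.4e-14) and by 0.73 under drought (limma adjusted p = 2.8e-10). Os03g0662000, an E3 gene, had 0.27, 0.26 and 0.20 FPKM in watered Hanhui3, against 2.50, 2.50 and 2.42 FPKM in watered Huhan7B. ACLA-2 was lower in watered Hanhui3 as well, by 1.35 (limma adjusted p = 4.4e-07). Under drought, Os09g0408600 was lower in Hanhui3 by 1.26 (limma adjusted p = 2.8e-10) and Os08g0431300 was higher by 1.04 (limma adjusted p = 2.8e-07), although both carry the component 4 annotation. Os08g0431300 had 9.44, 9.75 and 9.30 FPKM in droughted Hanhui3, against 4.02, 4.13 and 4.15 FPKM in droughted Huhan7B. Os11g0693800 was higher in Hanhui3 in both conditions, 1.70, 1.75 and 1.49 FPKM under drought against 0 in each droughted Huhan7B library.

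**Figure D5:**
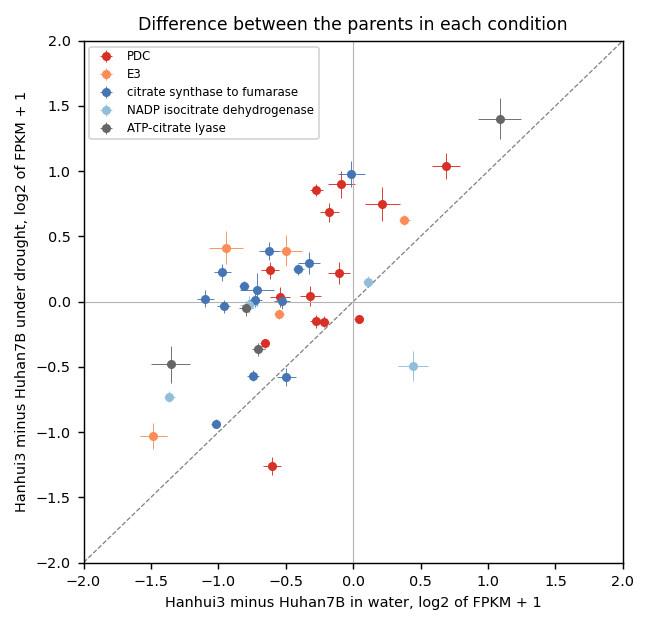
The log2 difference of FPKM + 1 between the parents, Hanhui3 minus Huhan7B, is plotted under drought (vertical axis) against water (horizontal axis) for the 41 tested members, with bars of 1 SE and 1 colour per enzyme group (PDC, pyruvate dehydrogenase complex). On the dashed line both differences are equal. Cycle genes lie left of 0 on the horizontal axis and mostly near or above 0 on the vertical one, above the dashed line for 12 called members of 14.

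The hybrid was set against the mean of its parents on the log2 scale. With water, Hanyou73 was above that mean in 29 of the 41 members (43.7% of all genes) and below it in 1 (23.5%), with a median of 0.37 against 0.14 over all genes, and in 24 and 7 after centring. Under drought it was above in 35 (58.4% of all genes) and below in 2 (14.3%), with a median of 0.46 against 0.31, and in 22 and 6 after centring, which moved the median of all genes to 0.03. Of the 14 cycle genes, 13 were above the mean of the parents with water and 14 under drought (11 above and 1 below in each condition after centring). All 4 NADP-dependent isocitrate dehydrogenase genes were above it in both conditions (4 and 2 of them after centring). The 1 member below it with water was the mitochondrial E3 gene Os01g0328700, at -0.19 ± 0.03, and the 2 below it under drought were OsPDHE1-A, at -0.31 ± 0.03, and Os09g0408600, at -0.27 ± 0.06. OsACO1 had 185, 195 and 183 FPKM in watered Hanyou73, against 50.0, 48.2 and 50.6 FPKM in watered Hanhui3 and 104, 104 and 96.8 FPKM in watered Huhan7B, a difference of 1.39 ± 0.03 from the mean of the parents (limma adjusted p = 1.0e-15). Os04g0508150 and Os11g0693800 exceeded that mean with water by 1.67 ± 0.10 (limma adjusted p = 3.7e-10) and 1.63 ± 0.14 (limma adjusted p = 3.1e-08). Under drought the largest excesses were 2.66 ± 0.14 for Os11g0693800 (limma adjusted p = 7.9e-11), 2.13 ± 0.11 for Os06g0246500 (limma adjusted p = 1.1e-10) and 1.69 ± 0.12 for ACLA-2 (limma adjusted p = 5.6e-09). Rubisco activase and antenna transcripts in the same hybrid libraries were under those of the parents by the amounts given above, and PSBS transcripts were above them. The part of these markers in the differences was not tested.

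Tested against each parent in turn, the watered hybrid was above both parents in 17 members (26.4% of all genes) and below both in none (12.5% of all genes were, and 1 member was after centring). In drought it was above both in 29 (39.2%) and below both in 1 (7.83%), with 15 and 3 after centring. The 1 member below both was OsPDHE1-A, at 104 to 105 FPKM in droughted Hanyou73, against 121 to 126 FPKM in droughted Hanhui3 and 131 to 139 FPKM in droughted Huhan7B. Succinyl-CoA ligase alpha and beta, both aconitase genes, the E1 alpha-3 subunit and the E1 gene Os07g0695800 were above both parents in both conditions. Os07g0695800 had 28.1, 26.0 and 27.9 FPKM in droughted Hanyou73, against 14.9, 13.3 and 13.5 FPKM in droughted Hanhui3 and 7.78, 6.04 and 5.96 FPKM in droughted Huhan7B.

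The change of the hybrid under drought was compared with the mean change of its parents. It was higher in 18 members (38.8% of all genes) and lower in 11 (19.5%), with a median difference of 0.14 against 0.17 over all genes. Centring on the median gene turned the split round, to 9 higher and 17 lower, so no common direction can be given. Chloroplast pyruvate dehydrogenase genes were higher in 5 of 6 cases and lower in 1 (3 and 1 after centring), and ATP-citrate lyase genes in 3 of 4 and 1 (2 and 1). After Os06g0246500, ACLA-2 and Os11g0693800 had the largest differences, 1.60 ± 0.17 (limma adjusted p = 1.4e-06) and 1.04 ± 0.19 (limma adjusted p = 0.00031). The lowest were Os04g0508150, at -0.70 ± 0.14, and Os09g0408600, at -0.64 ± 0.08.

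Genes that regulate or border the cycle, listed from the same annotation, are given for comparison. Over all genes tested, 45.0% rose and 25.7% fell in Hanyou73, 35.1% and 18.4% in Hanhui3, and 21.2% and 32.1% in Huhan7B. The counts of each short list, here and in the next 2 paragraphs, are to be read beside these shares. In a list of 13 tested genes assigned to pyruvate dehydrogenase kinase, its phosphatase or the mitochondrial pyruvate carrier, 8 rose and 1 fell in Hanyou73 (3 and 2 after centring on the median gene), 2 rose and 3 fell in Hanhui3, and 1 rose and 7 fell in Huhan7B. The kinase gene Os07g0637300, whose product inactivates the mitochondrial complex by phosphorylating E1 alpha, had 17.2, 19.4 and 19.0 FPKM in droughted Hanyou73, against 9.45, 8.97 and 8.81 FPKM in watered Hanyou73 (log2 change 0.95, limma adjusted p = 2.4e-10). It fell in the parents, by 0.29 in Hanhui3 and 0.31 in Huhan7B, and had 61.1 to 91.7 FPKM in their droughted libraries, against 74.5 to 117 FPKM in their watered ones. Os04g0584300, a protein phosphatase 2C that the annotation assigns to the phosphatase, rose by 1.34 in Hanyou73, where it had 10.4, 10.7 and 10.4 FPKM under drought, against 3.37, 4.15 and 3.22 FPKM with water.

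Of the malate dehydrogenase and phosphoenolpyruvate carboxykinase genes that the rule set aside, 9 were tested: 4 rose and 5 fell in Hanyou73, 4 rose and 2 fell in Hanhui3 (4 and 5 after centring), and 2 rose and 4 fell in Huhan7B (4 and 3 after centring). The gene annotated as glyoxysomal, Os03g0773800, averaged 1496 FPKM in droughted Hanyou73 and 804 in watered Hanyou73, a change of 0.89, whereas the chloroplastic Os07g0630800 fell by 1.29 there, to 3.10 FPKM, against 9.03 with water. Of 6 tested succinate dehydrogenase genes, 1 rose and 2 fell in Hanyou73, 3 rose and none fell in Hanhui3 (2 and 1 after centring), and none rose and 4 fell in Huhan7B. Its iron-sulfur subunit gene Os08g0120000 had 74.8, 72.7 and 76.7 FPKM in droughted Hanyou73, against 179.9, 179 and 167 FPKM in watered Hanyou73. The flavoprotein gene Os07g0134800 fell by 0.72 in Hanyou73 and by 0.68 in Huhan7B.

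The GABA shunt, which bypasses 2-oxoglutarate dehydrogenase and succinyl-CoA ligase on the way to succinate, had 6 tested genes. Of these, 6 rose in Hanyou73 (45.0% of all genes did), 5 rose in Hanhui3 (35.1%), and 3 rose and 2 fell in Huhan7B (21.2% and 32.1%). Their median log2 changes were 0.55, 0.42 and 0.10 in that order, against 0.18, 0.10 and -0.07 over all genes. Succinate-semialdehyde dehydrogenase, Os02g0173900, had 77.8, 78.4 and 78.6 FPKM in droughted Hanyou73, against 35.9, 36.7 and 36.4 FPKM in watered Hanyou73. The glutamate decarboxylase gene Os03g0236200 rose by 1.33 in Hanyou73 and stayed at or under 0.61 FPKM in the parents. Isocitrate lyase and malate synthase of the glyoxylate cycle, Os07g0529000 and Os04g0486950, both rose in Huhan7B (4.77 and 4.42) and in Hanhui3 (0.87 and 0.96), while isocitrate lyase fell by 1.25 in Hanyou73. In Huhan7B isocitrate lyase averaged 131 FPKM under drought against 3.83 with water, and malate synthase 57.9 against 1.75. The Hanhui3 means were near the floor, 1.16 against 0.17 FPKM and 2.41 against 0.76 FPKM. Among 8 malic enzymes, 4 rose and 3 fell in Hanyou73, with Os01g0743500 at 10.3, 10.1 and 9.33 FPKM under drought, against 0.39, 0.26 and 0.38 FPKM with water, and Os01g0723400 lower by 1.38. In the parents, 4 rose and 1 fell in Hanhui3 (2 and 2 after centring) and 3 rose and 3 fell in Huhan7B. Of 3 glutamate dehydrogenase genes, 2 fell in Hanyou73, 2 rose in Hanhui3 (2 and 1 lower after centring), and 1 rose and 1 fell in Huhan7B, with changes of -0.51 for Os01g0558200 in Hanyou73 and 0.49 for Os03g0794500 in Hanhui3. Alternative oxidase genes split 2 higher and 2 lower out of 6 in each genotype (2 and 3 in Hanyou73 after centring). The 6 include Os03g0847500 and Os04g0668900, whose products are annotated to the chloroplast or chromoplast and not to the mitochondrion. The mitochondrial Os04g0600200 and Os04g0600300 fell by 2.06 and 1.31 in Hanyou73. Both mitochondrial dicarboxylate and tricarboxylate carriers tested were called in Hanyou73, where Os11g0432400 rose by 1.503 and Os05g0208000 fell, and Os05g0208000 also fell by 0.40 in Huhan7B.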

How the data were processed

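Per the submitters' processing notes, the tools were RSEM, DESeq2, StringTie, HISAT2 and fastp and the genome build was IRGSP-1.0; versions are not given in the sources used here. The deposited values are FPKM with 2 decimals per gene for 18 polyA-selected libraries, named from the values themselves. They are no counts, so the count test planned for that case was not used. Relative depth came from the steps of low values, of which 72.9% to 79.2% were whole within 0.1 of a fragment (gene length reduced by 310 bases). Genes with 1 FPKM in at least 3 libraries were tested on log2(FPKM + 1) with limma 3.58.1 (R 4.3.3, trend, 6 group means), after 1017 structural RNA genes were left out. P-values were two-sided and adjusted by Benjamini-Hochberg over all 22590 genes tested, with a threshold of 0.05.

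Subunits and compartments were read from the annotation columns. Named in full were the 4 largest called changes per drought response, the 3 largest in each other comparison, the most abundant gene of each enzyme and, per list of other genes, the 2 largest called; further members were added to complete an enzyme or a contrast. Members and lists were chosen with earlier results of these data known. Replicate numbers were not treated as pairs. Deviations of drought and water libraries of 1 genotype with the same number correlated at -0.04 to 0.05. This shows no shared deviation by number, but cannot show how samples were paired in the field. Alternatives were another pseudocount (0.1), FPKM of 5 or no filter, median-ratio centring of libraries, structural RNA kept, a replicate block, only the groups compared, and leaving out each library. The test was checked on simulated data.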

Additional observations from a re-analysis of the deposited data

Results flagged for a closer look

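Drought responses that differed between genotypes by a test of the difference itself are listed here, each with its limma adjusted p over all genes tested. The change in Hanyou73 exceeded the mean change of Hanhui3 and Huhan7B by 1.83 on the log2 scale for the mitochondrial E1 alpha-2 gene Os06g0246500 (adjusted p = 1.2e-07). For ACLA-2, Os11g0696200, it exceeded that mean by 1.60 (adjusted p = 1.4e-06), and for the ATP-citrate lyase gene Os11g0693800 by 1.04 (adjusted p = 0.00031), a gene at or near 0 in Huhan7B in both conditions. Between the parents, the change in Hanhui3 exceeded that in Huhan7B by 1.36 for the E3 gene Os05g0160000 (adjusted p = 1.2e-05), by 1.20 for succinyl-CoA ligase alpha, Os07g0577700 (adjusted p = 2.6e-08), and by 1.13 for the chloroplast E1 alpha-3 gene Os04g0119400 (adjusted p = 3.2e-09). All 3 drought libraries lay above all 3 watered libraries in Hanyou73 for each of the first 3 genes and in Hanhui3 for each of the other 3. What these differences come from was not tested.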

How the results depend on the processing

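None of the 30 called changes of genes named by the rule lost its call or its direction in the 461 recomputations. Counts were more sensitive to median-ratio centring, and the cause was not tested. It gave 14 members higher and 9 lower in the Hanhui3 response, 8 higher in the Huhan7B response, and 9 higher and 17 lower for the hybrid against the mean parental response. It gave 7 lower for the Hanhui3 response minus the Huhan7B response, 7 below the mean of the parents with water, 22 above and 6 below it under drought, 1 below both parents with water, and 15 above and 3 below both parents under drought. Calls held in every alternative for 27 of 31 members in Hanyou73, 18 of 27 in Hanhui3, 26 of 29 in Huhan7B, 19 of 29 for the hybrid against the mean parental response and 26 of 35 for the Hanhui3 response minus the Huhan7B response. For levels they held for 25 of 30 members against the mean of the parents with water and 24 of 37 under drought, and between the parents for 29 of 36 with water and 25 of 32 under drought. The sign turned in at least 1 alternative for Os04g0390000 in Hanyou73, Os08g0536000 and Os09g0509200 in Hanhui3, and Os02g0232400 in the Hanhui3 response minus the Huhan7B response. It also turned against the mean of the parents for Os02g0739600 and Os04g0390000 with water and for Os02g0232400, Os04g0479200, Os05g0160000 and Os08g0536000 under drought.

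Leaving out 1 library gave 13 to 15 higher and 16 to 18 lower members in the Hanyou73 response, 16 to 23 and 5 to 6 in Hanhui3, and 3 to 4 and 24 to 26 in Huhan7B. For members below the mean of the parents with water it gave 1 to 2, with 2 when the first watered Hanyou73 library was left out. With a replicate block the drought responses had 15 higher and 17 lower members in Hanyou73, 21 and 5 in Hanhui3, and 3 and 26 in Huhan7B. The check above found no shared deviation by replicate number. Depth limits Os04g0508150, Os03g0662000, Os05g0160000 and Os11g0693800 most, and counts of reads were not used here.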
